A study of Mus musculus with 3 samples.

Results

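Interferon-stimulated genes are the genes that cells switch on when they sense interferon. The 9 chosen here were Stat2, Irf7, Ifit1, Ifit2, Ifit3, Isg15, Mx1, Mx2 and Usp18, and a transcript was taken as theirs where the array annotation gave it one of these gene names. This rule found 11 of 44170 transcripts, which belonged to 8 of the 9 genes and stand among 24171 genes named on the array. Stat2, Ifit1, Ifit2, Ifit3 and Mx2 had 1 probe set each, Irf7, Isg15 and Mx1 had 2 each, and each probe set was made of 3 probes. No transcript was found for Usp18, whose protein removes Isg15 from its targets and dampens the interferon receptor, and it is not analysed here.

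Type I interferons bind a receptor made of Ifnar1 and Ifnar2, which carries the kinases Tyk2 and Jak1. The kinases phosphorylate Stat2, which joins Irf9 in the factor ISGF3, and ISGF3 binds interferon-stimulated response elements in the promoters of target genes. Irf7, itself a target, drives further interferon production, and plasmacytoid dendritic cells of the spleen are known for holding it ready. The Ifit proteins bind viral RNA, Isg15 is a ubiquitin-like modifier, and the Mx proteins are GTPases that block viruses.

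Total RNA of 3 sorted spleen populations was hybridised to single-colour NimbleGen arrays, 1 array for each. They were B cells, natural killer cells (NK below) and a population labelled natural killer B cells (NKB). All mice were wild-type C57/BL6 animals 8 weeks old, kept under specific-pathogen-free conditions, and the labels name no treatment other than anaesthesia before the spleen was taken. The sources used here do not give the sort gate or the number of animals behind an array. The protocol text shared by the samples speaks of sorting long-term hematopoietic stem cells, so the populations were taken from the titles. With 1 array for each population there were no replicates and no test, and an effect of the array and an effect of the population cannot be told apart. The precision of each value is limited by that number.

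The values were intensities, the brightness of a probe set after the authors' normalization. Median intensities were close, at 64.3 (B), 64.8 (NK) and 65.1 (NKB). A detection level was set on each array from 924 genes for odorant and pheromone receptors, assumed silent in spleen cells. It was their 95th percentile, at 149 for B, 137 for NK and 135 for NKB. A gene was called where 2 arrays differed at least 2-fold after values under the level were set to it. Such a difference is then a lower bound, written as "at least". Probe sets of a gene were averaged first, so for a gene with several it bounds their mean and not each probe set. As a gauge of noise, plain 2-fold differences were counted in these receptor genes, and 20.9% showed one for NKB over B, 21.0% for NKB over NK and 14.0% for NK over B.

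The labelled cell types were set against their markers. All 10 B cell markers were above the level on the B and NKB arrays and 1 of them on the NK array. Of 9 NK markers present, 9 were above it on NK, 6 on NKB and 1 on B. Against NK, NKB was called lower for 8 of these 9 and higher for 0, where 5.10% and 5.97% of all genes were. The summed NK marker intensities were 591 on B, 25944 on NK and 5961 on NKB. Without Gzma, the widest of them, the sums were 551, 16187 and 1864. The B marker sums were 26284, 722 and 27502, and 24974, 644 and 16548 without Pax5.

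The promoters are shown first because ISGF3 and the Irf factors read the DNA of these genes directly. RefSeq promoter windows (build GRCm38.p6, 250 bases before to 50 after the annotated start) were at hand for 6 of the genes. They were searched for the core of the interferon-stimulated response element, which reads TTTC, any 2 bases and TTTC again, on either strand and with overlapping matches counted. On the other strand it reads GAAA, any 2 bases and GAAA. The core was found in 4 of the 6 genes, against 3.99% of the 27025 genes of the table, and in 4 of their 7 windows, against 3.44% of all 32851 windows. Stretches of 100 bases from 5 genes follow, in the direction of transcription, with the matched bases in capitals. The stretch of Irf7, in whose window no match was found, is given for comparison.
Ifit1, chr19:34640745-34640844, plus strand: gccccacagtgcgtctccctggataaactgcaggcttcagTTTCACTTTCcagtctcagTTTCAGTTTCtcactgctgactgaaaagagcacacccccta
Ifit3, chr19:34583333-34583432, plus strand: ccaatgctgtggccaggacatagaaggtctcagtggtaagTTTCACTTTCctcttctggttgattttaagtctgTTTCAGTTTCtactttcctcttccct
Isg15, chr4:156200837-156200936, minus strand: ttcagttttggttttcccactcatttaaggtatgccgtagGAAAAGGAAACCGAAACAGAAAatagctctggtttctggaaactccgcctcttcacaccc
Stat2, chr10:128270248-128270347, plus strand: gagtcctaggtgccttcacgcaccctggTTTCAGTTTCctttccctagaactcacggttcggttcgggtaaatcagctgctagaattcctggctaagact
Irf7, chr7:141266425-141266524, minus strand: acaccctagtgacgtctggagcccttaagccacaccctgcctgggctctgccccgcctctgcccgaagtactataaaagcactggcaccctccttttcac

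Ifit1 and Ifit3 each carried 2 separate matches, at -104 and -85 and at -156 and -122 from the start. Isg15 carried 3 overlapping matches on the other strand, which together read as 1 run in the stretch above. The match of Stat2 lay farther out, at -222. Ifit2 had 2 windows, and neither they nor the window of Irf7 held the letters, which says nothing of sites outside the windows. A longer core, GAAA, any 2 bases and GAAACT, was found on either strand in Ifit1 and Ifit3, 2 of the 6 genes, against 0.303% of all genes. The shorter core was also counted in the genes with a window of the other interferon lists described further on. It was found in 20 of 47 other type I target genes and 10 of 12 interferon gamma GTPase and chemokine genes. Of the ligand genes 10 of 18 held it, and of the sensor and adaptor genes 3 of 12. The counts were 2 of 12 for Stat and Irf factors, 1 of 8 for negative regulators and 0 of 8 for receptors and kinases.

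**Figure D1:**
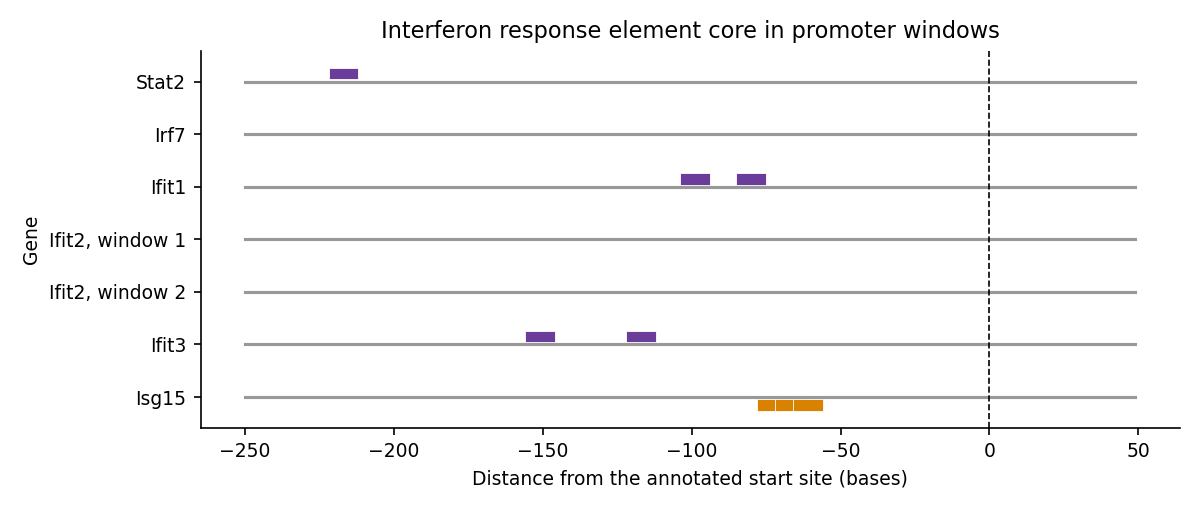
Positions of the response element core in the promoter windows, in bases from the annotated start site (dashed line). Each grey line is 1 window, purple boxes above it are matches in the direction of transcription and orange boxes below it are matches on the other strand. Matches lie in Stat2, Ifit1, Ifit3 and Isg15, and the windows of Irf7 and Ifit2 are empty.

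Across the 3 arrays the genes did not move as 1 block. On the NKB array Ifit3 and Mx2 were higher than on both other arrays and Irf7 was lower than on both. Stat2 was about level with B and higher than NK, Ifit2 stood highest on NKB by less than the threshold once the detection level was applied, Isg15 and Mx1 gave opposite answers on their 2 probe sets, and Ifit1 was under the detection level on every array.

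Stat2 (BC064827, chr10:127720288-127729905 on build MM9) encodes the transcription factor that gives ISGF3 its activating domain. Its intensity was 765 in B, 299 in NK and 865 in NKB. B and NKB stood close together and NK alone was low. The difference was 0.18 on the log2 scale (1.13-fold) for NKB over B, 1.53 (2.90-fold) for NKB over NK and -1.36 for NK over B, so that Stat2 was 2.56-fold lower in NK than in B.

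Irf7 (chr7:148449087-148452300, MM9), the factor that amplifies interferon production, was measured by 2 probe sets on the same span. Probe set AK002830 read 399 on B, 346 on NK and 163 on NKB. Probe set AK159883 read 262 on B, 414 on NK and 53.2 on NKB, the last of these under the detection level. Both probe sets put NKB lowest, with log2 differences of -1.29 and -2.30 against B and of -1.08 and -2.96 against NK. Between NK and B they had opposite signs, -0.21 and 0.66. The mean of both was under the level on NKB, and on that mean NKB was at least 2.39-fold under B and at least 2.80-fold under NK. Probe set AK002830, above the level throughout, gave 2.44-fold and 2.12-fold.

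Ifit3 (BC003804, chr19:34658052-34663219, MM9), an RNA-associated protein that in human cells steadies its relative IFIT1, had the widest spread of the 8 genes when probe sets were averaged. Its intensity was 386 on B, 145 on NK and 1130.2 on NKB. All 3 values were above the detection level, with NKB highest and NK just over the level. NKB was 2.93-fold higher than B (1.55 on the log2 scale) and 7.78-fold higher than NK (2.96). NK was 2.66-fold lower than B (-1.41).

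The near copy Ifit3b was read for comparison, and was chosen after the values of Ifit3 had been seen. Its probe set AK152620 read 177 on B, 74.4 on NK and 207 on NKB, the same order as Ifit3. Its other probe set, NM_001005858, read 52.3, 51.0 and 38.2, all under the detection level. How far the probe sets of Ifit3 and Ifit3b detect each other's transcript was not tested.

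Ifit2 (BC050835, chr19:34625435-34651013, MM9), another RNA-binding member of the family, read 104 on B, 146 on NK and 218 on NKB. B was under the detection level and NK just over it. The plain log2 difference was 1.06 for NKB over B and 0.58 for NKB over NK. With the level applied the first became at least 0.55, under the threshold, so Ifit2 was not called in any comparison.

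Ifit1 (BC003768, chr19:34715406-34724060, MM9), which binds the caps of foreign RNA, read 70.1 on B, 71.3 on NK and 36.4 on NKB. All 3 values were under the detection level and no fold is given.

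Isg15 (chr4), the ubiquitin-like modifier, had probe sets BC031424 (155573574-155574894, MM9) and NM_015783 (155573563-155574905). BC031424 read 105 on B, 44.9 on NK and 38.4 on NKB, under the level on every array. NM_015783 read 141 on B, 38.4 on NK and 219 on NKB, of which NKB alone was above its level. The first probe set put NKB lowest and the second put it highest, with log2 differences of -1.45 and 0.63 against B and of -0.23 and 2.52 against NK. They had the same sign for NK over B, -1.22 and -1.88, with all 4 values under the level. The mean of both was under the level on all arrays, and Isg15 was not called.

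Mx1 (chr16:97668641-97684512, MM9) encodes a nuclear GTPase that restricts influenza virus in mice with an intact allele. C57BL/6 mice are known to carry an allele that lacks coding exons and makes no working protein. Probe set AK076430, which the array annotation also gives to a non-coding record, read 111 on B, 187 on NK and 40.4 on NKB. Probe set NM_010846 read 145 on B, 95.6 on NK and 254 on NKB. The arrays came out in reverse order on the 2 probe sets, with log2 differences of -1.46 and 0.81 for NKB over B and of -2.21 and 1.41 for NKB over NK. The mean of both stayed under the level on all arrays, and Mx1 was not called.

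Mx2 (NM_013606, chr16:97757687-97782508, MM9), the neighbouring gene, is known for a cytoplasmic relative of the Mx1 protein. Whether these mice make a working Mx2 protein was not tested. The Mx2 probe set read 98.9 on B, 91.2 on NK and 382 on NKB. B and NK were both under their detection level and only NKB was above it. Its lower bound for NKB was therefore 2.57-fold over B and 2.79-fold over NK, that is, at least those folds.

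**Figure D2:**
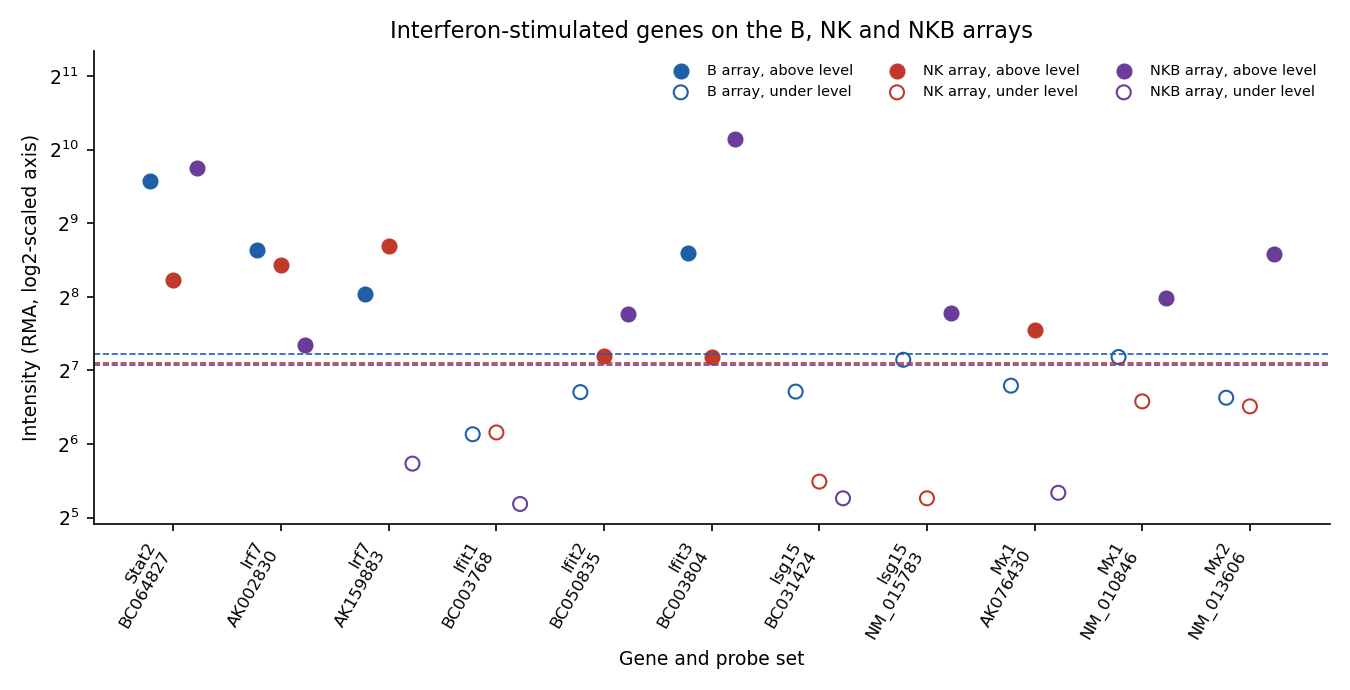
Intensity (log2-scaled axis) of each of the 11 probe sets on the B (blue), NK (red) and NKB (purple) arrays, 1 point for 1 array. Dashed lines are the detection levels of 149, 137 and 135, and open points lie under their level. NKB is the highest point for Ifit3 (1130.2) and Mx2 (382) and the lowest for both probe sets of Irf7, and the 2 probe sets of Isg15 and of Mx1 place it at opposite ends.

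For NKB against B, 2 of the 8 genes were called higher, Ifit3 and Mx2, where 4.56% of all 24171 genes were. Irf7 was the 1 gene called lower, where 4.75% of all genes were. Among genes detected on the B array, which do not need a high NKB value to enter, 1 of 3 was higher, against 12.0% of such genes, and 1 of 3 lower, against 20.3%. Over single probe sets without the level, 3 of 11 were higher and 4 lower, against 17.0% and 16.0% of all transcripts. The plain log2 differences of the 8 genes ran from -1.80 to 1.95 with a median of -0.07, beside 0.01 over all genes, and 4 were above 0 and 4 below.

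For NKB against NK, 3 of the 8 genes were called higher, Ifit3, Mx2 and Stat2, where 5.97% of all genes were, and Irf7 alone was lower, where 5.10% were. Of the 4 detected on the NK array, 2 were higher, against 13.6% of such genes, and 1 lower, against 20.3%. Over single probe sets without the level, 5 of 11 were higher and 3 lower, against 18.9% and 17.2% of all transcripts. The median plain log2 difference of the 8 genes was 0.86, from -2.02 to 2.96, beside 0.02 over all genes. This comparison and that with B use the same NKB array, so a high or low value on it enters both.

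For NK against B, none of the 8 genes was called higher, where 2.22% of all genes were, and 2 were lower, Ifit3 and Stat2, where 2.97% were. These were 2 of the 3 genes detected on the B array, of which 12.7% were lower over all genes and 4.58% higher. Over single probe sets without the level, 0 of 11 were higher and 4 lower, against 10.3% and 10.9%. The median plain log2 difference was -0.05, beside -0.03 over all genes.

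NKB lay at least 2-fold above both other arrays for 2 of the 8 genes, Ifit3 and Mx2, as did 3.83% of all genes. It lay below both for Irf7, as did 2.37% of all genes. Over single probe sets without the level, 2 of 11 were above both and 3 below both, against 11.7% and 8.81% of all transcripts. With 8 genes, 1 gene more or less moves each of these shares widely, and no test of the difference from the background was made. When the 99th percentile of the receptor genes served as the level, the calls of Mx2 and Irf7 and both calls between NK and B were lost, and at a 3-fold threshold only that of Ifit3 over NK remained. Asking every probe set to pass on its own, with the level applied, removed the Irf7 call against B and with it the position below both.

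**Figure D3:**
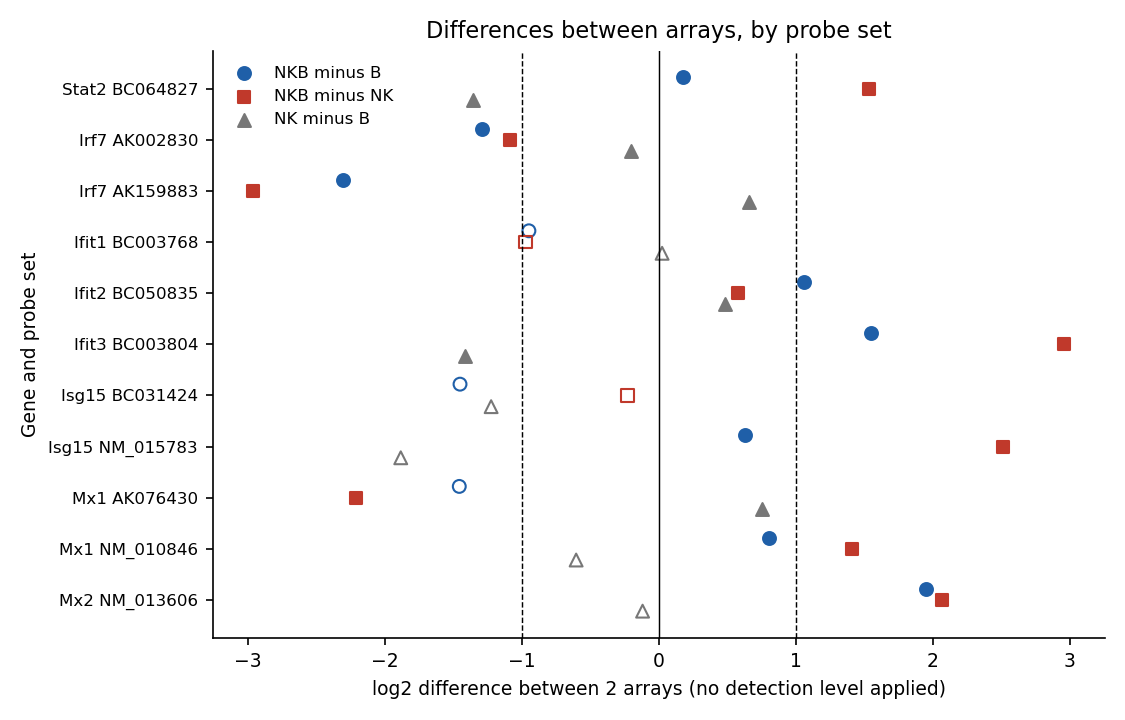
Plain log2 differences between 2 arrays for each probe set, with NKB minus B as circles, NKB minus NK as squares and NK minus B as triangles. Open symbols mark pairs of which both values lie under the detection level, and dashed lines mark a 2-fold difference. Ifit3 and Mx2 lie to the right of the 2-fold line in both NKB comparisons and both Irf7 probe sets to the left, while Isg15 and Mx1 have a probe set on either side of 0.

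The disagreement of probe sets was measured against the array as a whole. The background was the 3341 genes with exactly 2 probe sets, at least 1 of them above the detection level on an array. Over these, the median gap between the log2 differences of the 2 probe sets was 1.16 for NKB over B, 1.27 for NKB over NK and 0.74 for NK over B. The 2 probe sets had opposite signs in 43.5%, 41.3% and 40.8% of these genes. Isg15 had a gap of 2.08 for NKB over B and 2.74 for NKB over NK, which 22.2% and 14.1% of the genes reached. Mx1 had gaps of 2.26 and 3.62, which 18.2% and 4.64% reached. Irf7 had gaps of 1.01 and 1.88 with the same sign, which 55.9% and 32.3% reached. The genes with 1 probe set, Stat2, Ifit2, Ifit3 and Mx2 among them, have no such check.

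**Figure D4:**
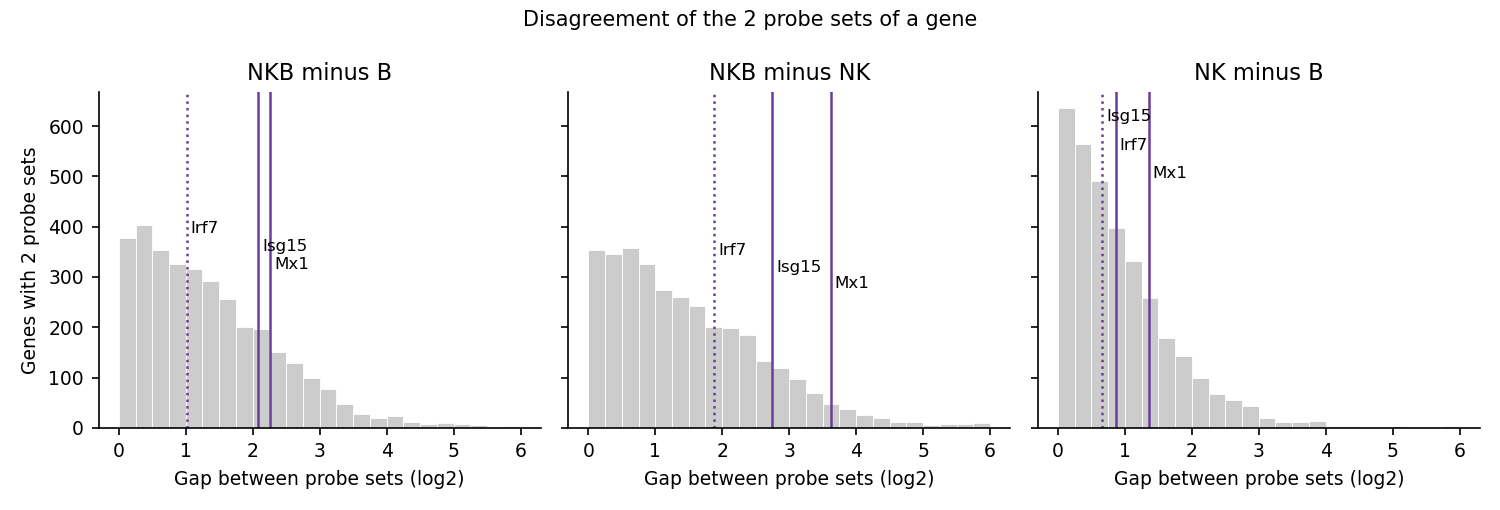
Number of genes with 2 probe sets by the gap between the log2 differences of those probe sets, for each pair of arrays. Only genes with at least 1 probe set above the detection level on an array are counted. Vertical lines give Irf7, Isg15 and Mx1, dotted where both probe sets have the same sign and solid where the signs are opposite. For NKB minus NK the gap of Mx1 (3.62) lies in the tail and that of Irf7 (1.88) in the body of the distribution.

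The other genes of the pathway are given list by list, and their counts stand beside the same shares of all genes: 4.56% higher and 4.75% lower against B, and 5.97% and 5.10% against NK. The interferons themselves, the signals at the start of the pathway, were mostly not detected. Of 16 ligand genes on the array, 1 was above the level on each array. On NK this was Ifng, the type II interferon made by NK cells, which read 38.6 on B, 1553 on NK and 67.8 on NKB, so that NKB was at least 11.5-fold lower than NK. Ifna5 read 192, 89.6 and 69.7 and Ifnl3 read 102, 44.4 and 167 on B, NK and NKB, and neither was called against NKB.

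Of 9 receptor and kinase genes, NKB was above B for 2 and below it for 0, and above NK for 2 and below it for 2. Jak2, a kinase of the interferon gamma receptor, read 227 on B, 239 on NK and 672 on NKB. Ifngr1, the ligand-binding chain of that receptor, read 227 on B, 1123 on NK and 607 on NKB, between both other arrays. Jak1, which serves the receptors of all interferon types, stood apart on NK at 3463, beside 694 on B and 679 on NKB. Ifngr2, the second chain of the gamma receptor, read 388, 74.2 and 314, and Il10rb, a chain of the lambda receptor, read 177, 334 and 117. The receptor chains for type I interferon, named outside the rule for named genes and after their values had been seen, were called in no comparison on their means, at 349, 269 and 304 for Ifnar1 and 224, 368 and 278 for Ifnar2. The mean of Ifnar2 covers 4 probe sets that disagreed. On B, NK and NKB, NM_001110498 read 242, 507 and 1354 and put NKB highest, while Y09813 read 291, 362 and 86.5 and put it lowest.

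Among the 14 Stat and Irf factors beside Stat2 and Irf7, NKB was above B for 1 and below it for 4, and above NK for 2 and below it for 3. Irf9, the DNA-binding partner of Stat2 in ISGF3, read 426 on B, 256 on NK and 109 on NKB as a mean of 3 probe sets, and on that mean NKB was lower than B and past the threshold. All 3 probe sets put NKB lowest, but by widely different amounts, from -0.19 on AK043697, above the level on every array, to -3.33 against B on the log2 scale. NKB thus stood below B for Irf9 on the mean and level with B for Stat2.

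Irf4, a factor of B cell activation and plasma cell formation, had the widest difference among the factors, at 330 on B, 147 on NK and 1740 on NKB. Stat6, the factor of interleukin-4 signalling, was lowest on NKB at 820, 748 and 274. Stat3, which serves interleukin-6 and related cytokines, read 1779, 2602 and 790. Its 2 probe sets had opposite signs for NKB over B, 0.43 and -2.77.

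Of 15 nucleic acid sensor and adaptor genes, 1 was called in either NKB comparison, and lower in both. This was Sting1, the adaptor that turns sensing of cytosolic DNA into interferon production, at 1265 on B, 1231 on NK and 451 on NKB. Myd88, the adaptor of Toll-like receptors, read 871, 697 and 697, and Zbp1, a sensor of Z-form nucleic acid, read 222, 185 and 209. Mavs, the adaptor of the RNA sensors, read 192 on B and was under the level on NK (98.6) and NKB (41.9). Aim2, a DNA sensor of the inflammasome, was above the level on B alone, at 149.9, and Ikbke, a kinase that activates Irf factors, read 161, 201 and 118.

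Of 55 other type I interferon target genes on the array, NKB was above B for 1 and below it for 5, while it was above NK for 4 and below it for 0. At the shares of all genes called, 55 genes would give 2.51 and 2.61 against B and 3.28 and 2.81 against NK, so the count above NK is near the background. Their median plain log2 difference was -0.11 against B and 0.19 against NK, beside 0.01 and 0.02 over all genes. Parp9, a partner of the ubiquitin ligase Dtx3l, was called higher in both, at 98.6 on B, 101 on NK and 412 on NKB, or by at least 1.47 and 1.59 on the log2 scale. Adar, the RNA-editing enzyme, read 698, 379 and 952, and its 3 probe sets all put NKB over NK. Ifitm2, a membrane protein that hinders viral entry, read 71.9, 125 and 264 and was not called.

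On the lower side, Pml, the organizer of nuclear bodies, read 621 on B, 99.3 on NK and 159 on NKB and was 3.90-fold lower in NKB than in B. Uba7, the enzyme that activates Isg15 for conjugation, read 359, 280 and 151 and was 2.38-fold lower than in B. Trim30a read 285, 253 and 102 as a mean of 2 probe sets, of which AK089726 was under the level on B and NKB. For Pml and Uba7 every probe set put NKB under B.

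Of 17 genes that answer chiefly to interferon gamma, NKB was above B for 0 and below it for 1, and above NK for 2 and below it for 3. The shares of all genes would give 0.775 and 0.807 against B, near the counts found, and 1.01 and 0.867 against NK. The GTPases Gbp3, at 276, 152 and 489, and Irgm1, at 307, 113 and 496, were highest on NKB. Ifi47, at 482, 380 and 160, and Gbp4, at 239, 312 and 85.6, belong to the same GTPase families and were lowest on NKB. Gbp3 and Irgm1 passed the threshold against NK and not against B.

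Among 11 negative regulators, the called genes were 1 on each side against B and 3 on each side against NK. Ptpn2, a phosphatase that switches off Jak1, read 128, 154 and 476. Pias4, an inhibitor of Stat signalling, read 1127, 974 and 360, and Pias1, its relative, read 233, 398 and 101. Pias1 was called lower than NK on a mean of 2 probe sets, with log2 differences of -3.89 and -0.08. Socs3, a cytokine-induced inhibitor of Jak kinases, read 130, 771 and 221 on B, NK and NKB. Ptpn6, a phosphatase of lymphocyte receptors, read 1075, 219 and 588 and was called higher than NK on a mean of 2 probe sets. These probe sets differed in sign for NKB over B, at 1.15 and -2.90, and for NKB over NK, at 3.63 and -0.78. The last of these differences lay between values under the level.

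**Figure D5:**
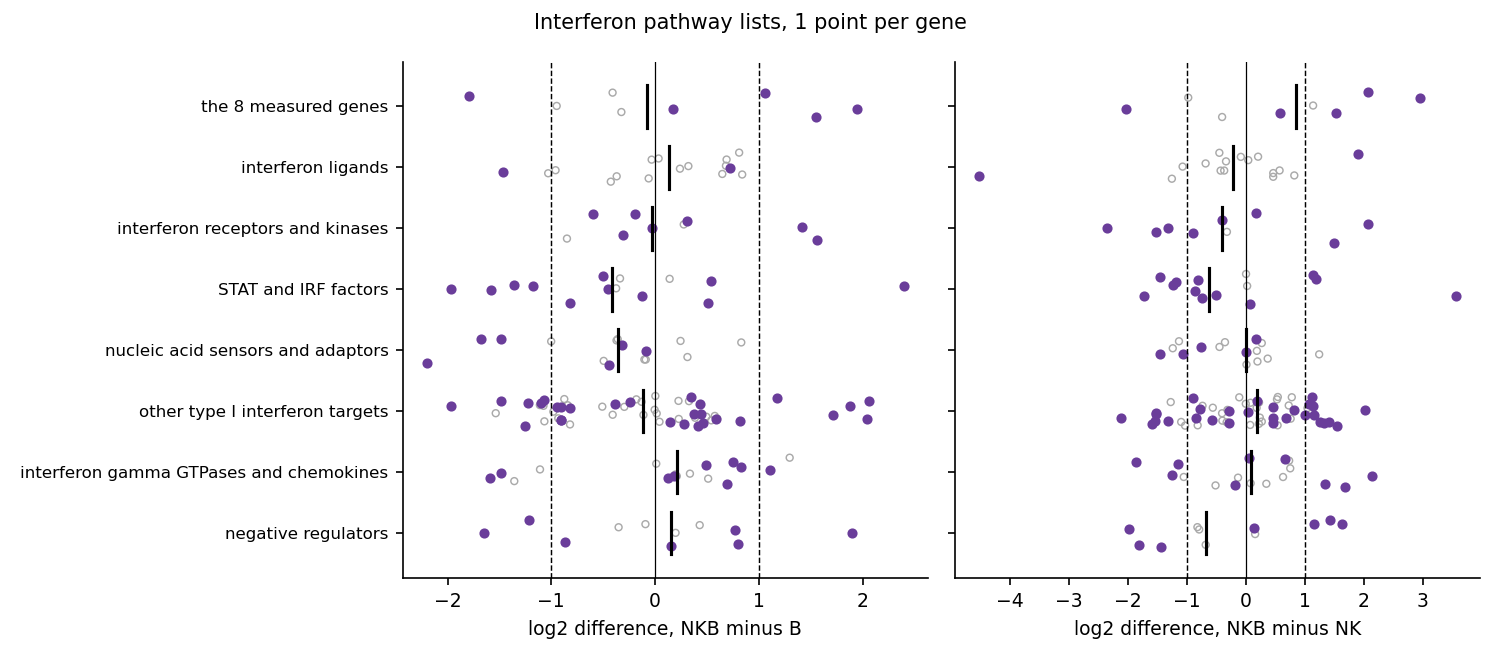
Plain log2 differences of NKB minus B (left) and NKB minus NK (right) for the 8 genes and the 7 interferon lists, 1 point for each gene and spread vertically only to separate them. Filled points are above the detection level on at least 1 of the 2 arrays, open points on neither, black bars are medians over all genes of the list and dashed lines mark a 2-fold difference. Every list has points on both sides of 0 in both comparisons.

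A gene of like pattern was sought among 2795 genes detected on an array and spanning at least 1 on the log2 scale, by the distance of its centred values over the 3 arrays to the median centred profile of the 5 detected genes. That profile was -0.05 on B, -0.53 on NK and 0.57 on NKB. The 5 nearest were Ndufs7, a subunit of respiratory complex I, Nfyc, a subunit of the CCAAT-binding factor, Eif3m, a translation initiation subunit, Zmynd11, a histone reader, and Top1, a DNA topoisomerase. As many as 114 genes lay within a distance of 0.25, so 3 points tell patterns apart only coarsely. The 5 detected genes lay farther from their own median, from 0.41 for Ifit2 to 1.89 for Irf7.

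Markers of other cells that make or answer interferon were read beside these values. Their counts stand beside the shares of all genes above the level, 23.38% on B, 25.13% on NK and 24.96% on NKB. Of 9 plasmacytoid dendritic cell markers, the B array showed 2 above its level, NK 3 and NKB 3, with summed intensities of 975, 841 and 1306, and Siglech and Tcf4 were detected on none. The counts of 2, 3 and 3 of 9 are near those shares, so they do not set the plasmacytoid markers apart from the background. Klk1 alone read 37.4, 32.3 and 565, and without it the sums were 937, 809 and 741, lowest on NKB. Of 13 monocyte and macrophage markers, 2, 10 and 9 were detected, with sums of 1200.1, 8108 and 7684, and Cd14, Mpeg1 and Marco on none. Lyz2 alone read 93.7, 2388 and 671, and without it the sums were 1106, 5721 and 7013, highest on NKB. Of 8 erythroid markers, 3, 4 and 3 were detected, with sums of 1358, 5986 and 9573 (1107, 3903 and 3991 without Hbb-b1), and Alas2, Klf1 and Tfrc were among those detected on none. Conventional dendritic cell markers were detected as 0, 1 and 0 of 6, neutrophil markers as 0, 1 and 1 of 9, T cell markers as 2, 4 and 3 of 9 and plasma cell markers as 4, 4 and 2 of 6. The plasma cell sums ran the other way from those counts, at 937, 861 and 2544, with Irf4 at 1740 and Jchain at 499.7 on NKB. The part of these cells in the interferon gene values was not tested, and in sorted bulk RNA fewer cells of a type and less RNA in each cell cannot be told apart.

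The authors' deposited tables of transcripts that set NKB apart from B or NK by 2-fold or more list 12 of the 15 such differences that the 11 probe sets show without a detection level. The 3 left out are both differences of Mx2 and that of Isg15 BC031424 against B. The listed transcripts are exactly the 7217 for NKB and B and the 7877 for NKB and NK that differ 2-fold and reach an intensity of 100 on at least 2 of the 3 arrays. Mx2 exceeded 100 on the NKB array alone, at 382, and read 98.9 on B and 91.2 on NK. A transcript that reaches 100 on 1 array alone cannot enter those tables whatever its difference.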

How the data were processed

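Values were 1 intensity per transcript and array, on a linear scale, as deposited by the authors, whose processing notes name RMA without a version. The authors' deposited tables of log2 ratios equal ratios of 2 arrays, without a test. Coordinates are on MM9, per the file headers. Probe sets of a symbol were averaged on the log2 scale after symbols were updated by gene identifier (39057 of 44170 transcripts matched, 5650 changed). No further normalization was applied. The 8 genes, the other interferon lists and the markers were chosen with earlier results of these data known. Genes named were all members, the 2 largest and 2 smallest differences of each list among detected genes, and the 5 nearest patterns, leaving out predicted names. Alternatives were other detection levels, normalizations, probe set summaries, thresholds, gene names and a longer motif. Scripts (Python 3.11.15, numpy 2.4.6, pandas 2.3.3, matplotlib 3.10.9) were tested on simulated data with less noise than the receptor genes showed between arrays. Some genes of the lists are counted but not reported here by name. Standard errors in the files were not used.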

Additional observations from a re-analysis of the deposited data

How the results depend on the processing

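No paired analysis was possible because each population had 1 array, and for the same reason no array could be left out. The background correction could not be varied, since RMA values alone were used. Where the level was the 99th percentile, NKB was above B for 1 of the 8 genes and below it for 0, below NK for 0, NK was below B for 0, and NKB lay above both other arrays for 1 and below both for 0. Mx2 (382 on NKB) then stayed above the NKB level of 235 but not above the levels of 416 on B and 401 on NK that replaced its values there, so its log2 differences of -0.12 and -0.068 give no bound. At a 3-fold threshold, NKB was above B for 0 genes and below it for 0, above NK for 1 and below it for 0, NK was below B for 0, and NKB lay outside both for 0. Asking every probe set to pass left 0 genes below B on NKB and 0 below both. Without a level Isg15 was 1.14 higher in NKB than in NK. Over the other 7 lists, of 16, 9, 14, 15, 55, 17 and 11 genes, NKB over B gave 5 higher and 12 lower genes. At that main setting 4.56% and 4.75% of all genes were called. The count higher was 1 at the 99th percentile, 10 with the array median as level and 11 with none. The count lower was 19 with the median and 26 with none. NKB over NK gave 13 higher and 13 lower, beside 5.97% and 5.10% of all genes. At the 99th percentile, the median and no level these counts were 3, 22 and 24 higher and 8, 22 and 30 lower. NK over B gave 6 higher and 7 lower, beside 2.22% and 2.97% of all genes. The count higher was 3 at the 99th percentile and 10 with no level. The count lower was 1, 13 and 14 at the 99th percentile, the median and no level, and 4 with arrays at equal medians. Shares of all genes at the other levels and the 3-fold threshold are not given here, so counts under them stand without a background. The longer core was found in 2 genes, not 4. Quantile normalization, equal medians, the brightest probe set and a 1.5-fold threshold kept the count of called members within 1.5 times in every comparison. Over all genes, higher calls made up 49.0% for NKB over B, 53.9% for NKB over NK and 42.8% for NK over B. In that order they were 43.8%, 45.8% and 52.2% after quantile normalization and 54.6%, 47.8% and 61.0% at equal medians. The shift to equal medians moved the median difference of all genes away from 0, to 0.098, -0.084 and 0.16. For NK over B it had been -0.03. The medians made equal were thus not those of all genes, and the genes they covered are not given here. The causes were not tested.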
